A study of Mus musculus with 5 samples.

Results

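The genes described here carry peptides to the cell surface on MHC class I molecules. They are B2m, H2-K1, H2-D1, Tap1, Tap2, Tapbp, Psmb8, Psmb9, Psmb10 and Nlrc5, chosen by symbol as 10 of the 17818 gene symbols with values. RNA-seq was run on whole-heart tissue of male mice, each the recipient of transplanted bone marrow. The groups were 2 libraries from animals of genotype Tet2+/- given Oridonin (Tet2 oridonin), 2 from animals of genotype Tet2+/- given vector (Tet2 vector) and 1 from a WT animal given vector (WT vector). Oridonin is a plant diterpenoid, and the series title names the histone demethylase KDM5C as its target. All animals were transplanted, the hearts were taken 12 months after it, and treatment is given as 2 months in the sample characteristics, while the titles say 1 month or 2 months. The labels do not say whether the genotype is that of the donor marrow or of the host, and give no strain and no age. The title number served only to name replicates. Replicate 1 of each group, the WT library included, is titled 1 month, and replicate 2 of each Tet2 group 2 months. Whether replicates differ in treatment time is therefore not known.

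Class I molecules display peptides from inside the cell to CD8 T cells. In most cells the peptides come from the proteasome, and the transporter TAP brings them into the endoplasmic reticulum, where tapasin helps to load them onto a heavy chain paired with beta-2-microglobulin. Interferon-gamma, made chiefly by T and NK cells, induces the whole route, in part through IRF1. It also brings in the immunosubunits, which replace the constitutive catalytic subunits of the proteasome core and favour peptides that fit class I grooves. NLRC5 is the transactivator of class I genes. Heart muscle cells are known to show little class I, and endothelial cells and leukocytes much more.

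The members fall into clusters in the genome (GENCODE annotation of GRCm38, the assembly also called mm10). On chromosome 17, within the MHC, lie Tapbp (33915899 to 33929292), H2-K1 (33996017 to 34000347), Psmb9 (34181987 to 34187764), Tap1 (34187553 to 34197225), Psmb8 (34197721 to 34201454), Tap2 (34203527 to 34216321) and H2-D1 (35262730 to 35267499). B2m lies on chromosome 2 (122147686 to 122153083), and Nlrc5 (94434356 to 94527272) and Psmb10 (105935735 to 105938444) on chromosome 8. Psmb9 and Tap1 run in opposite directions, with RefSeq start sites 226 bases apart, so their promoter windows share 275 bases.

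The upstream sequences of 4 members are shown as examples, because class I promoters are known for a small set of control elements. All 10 members stood higher in the Tet2 hearts, so that direction does not set these 4 apart. Of the 4, B2m, H2-K1 and H2-D1 had the highest CPM among the members in every library. RefSeq (GRCm38.p6) gave promoter windows for 8 of the 10 members, all but Tap2 and Nlrc5. Each line holds the 250 bases before the start site, for H2-K1 the first of the start sites listed. Capitals mark matches, on either strand, to the interferon-response core (GAAA, any 2 bases, GAAA), the interferon-gamma-activated site TTCNNNGAA, the NF-kappaB consensus, TGACGC, which is the letters of a CRE-like site, and CCAAT.
B2m (chr2:122147437-122147686, plus strand): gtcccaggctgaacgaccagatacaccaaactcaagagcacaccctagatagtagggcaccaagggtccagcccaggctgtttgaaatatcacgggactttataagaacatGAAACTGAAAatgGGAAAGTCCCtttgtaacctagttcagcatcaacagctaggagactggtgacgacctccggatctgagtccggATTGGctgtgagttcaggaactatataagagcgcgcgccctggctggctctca
H2-K1 (chr17:34000348-34000597, minus strand): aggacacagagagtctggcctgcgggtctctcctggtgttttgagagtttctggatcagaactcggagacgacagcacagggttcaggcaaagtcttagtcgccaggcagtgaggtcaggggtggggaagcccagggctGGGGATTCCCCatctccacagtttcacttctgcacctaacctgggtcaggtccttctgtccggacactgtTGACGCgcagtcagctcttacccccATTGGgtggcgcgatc
H2-D1 (chr17:35262844-35263093, plus strand): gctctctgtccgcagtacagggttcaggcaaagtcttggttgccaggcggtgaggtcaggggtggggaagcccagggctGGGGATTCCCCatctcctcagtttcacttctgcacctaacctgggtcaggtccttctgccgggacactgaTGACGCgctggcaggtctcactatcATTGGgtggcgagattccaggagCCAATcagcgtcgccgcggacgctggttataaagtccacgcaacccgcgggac
Tap1 (chr17:34187306-34187555, plus strand): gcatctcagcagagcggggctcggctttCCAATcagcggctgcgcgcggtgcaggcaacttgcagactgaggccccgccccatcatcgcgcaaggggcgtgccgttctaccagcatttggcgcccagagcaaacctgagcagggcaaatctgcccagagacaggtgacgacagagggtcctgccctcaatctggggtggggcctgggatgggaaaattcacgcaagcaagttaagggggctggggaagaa

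Over the full windows, which also hold 50 bases after the start, the NF-kappaB consensus occurred in 3 of the 8 members, B2m, H2-K1 and H2-D1, against 4.35% of 27025 RefSeq promoter windows. In H2-K1 and H2-D1 the NF-kappaB consensus matched at a pair of overlapping places in the same run, beginning 111 bases before the start in H2-K1 and 171 in H2-D1, and TGACGC followed, 41 and 101 bases before the start of those genes. TGACGC occurred in those 2 members, against 7.5% of windows. The interferon-response core occurred in B2m alone, 139 bases before the start, against 3.49% of windows, and TTCNNNGAA in Psmb8 alone, against 8.47%. CCAAT occurred in 6 of the 8, against 37.9%. The CCAAT matches of Tap1 and Psmb9 are the same bases of their shared windows, counted once for each gene. A match is a description of the letters and not a measured binding site. The search took only the exact patterns given above. A window without a match, as in H2-K1 and H2-D1 for the interferon-response core, may still hold a variant of that element. Variants were not searched for.

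Levels are given as CPM, the counts of a gene scaled to its library total, and are compared between libraries and not between genes. The Tet2 columns had been deposited as mixes of replicate pairs. They were unmixed first, which gave whole counts for 99.92% to 99.94% of genes and library totals of 14626806 and 14574823 counts in Tet2 oridonin and 15535778 and 15334618 in Tet2 vector. In the WT column 33.48% of genes gave whole counts. It was used as deposited, and its values, rounded to whole counts, summed to 15002066. Tet2 itself was at 9.43 and 17.9 CPM in Tet2 oridonin hearts, 19.2 and 7.76 CPM in Tet2 vector hearts and 15.6 CPM in the WT heart, with overlapping groups, and is no check of the Tet2+/- label. Tet2 vector replicate 1 stood apart by atrial markers, which summed to 981 CPM there against 70 CPM in Tet2 vector replicate 2, 14.1 and 18 CPM in Tet2 oridonin and 44.1 CPM in WT. Results are therefore also given without that library. Cardiomyocyte markers summed to between 56700 and 72600 CPM in every library, as a heart sample should show.

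Libraries also differed by transcript length. Against the WT library, the median log2 difference over 4096 genes with transcripts over 4 kb was -0.35 and -0.08 in Tet2 oridonin and 0.05 and -0.41 in Tet2 vector. Over 765 genes with transcripts of up to 1 kb it was 0.22 and 0.08 in Tet2 oridonin and 0.11 and 0.45 in Tet2 vector. Short transcripts were thus relatively high, and long ones relatively low, in Tet2 vector replicate 2 and Tet2 oridonin replicate 1. The principal transcripts of the members run from 860 bases (B2m) to 7578 bases (Nlrc5), and each comparison below is also given after adjustment for length.

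The light chain and the classical heavy chains were higher in every Tet2 library than in the WT library. B2m, the light chain shared by all class I molecules, was at 351 and 361 CPM in Tet2 oridonin hearts, 450 and 425 CPM in Tet2 vector hearts and 216 CPM in the WT heart. H2-K1, a classical heavy chain, was at 293 and 255 CPM in Tet2 oridonin, 329 and 277 CPM in Tet2 vector and 178 CPM in WT. The Tet2 oridonin and Tet2 vector libraries overlapped for H2-K1 but not for B2m. H2-D1, the other classical heavy chain, was at 307 and 284 CPM in Tet2 oridonin, 340 and 317 CPM in Tet2 vector and 229 CPM in WT. It too had WT lowest, and Tet2 oridonin lay below Tet2 vector without overlap, by less than the gap to WT.

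The heavy chains are partly alike in sequence, which limits how far their reads can be told apart. Of all 50-base stretches of the H2-K1 transcript, 8.11% also occur in transcripts of other genes, mostly H2-D1, and of H2-D1 14.3% do, mostly in H2-Q1. B2m, the immunosubunits and Nlrc5 share 0% and the other members at most 2%. Stretches were compared in the direction of the transcripts only. H2-K1 and H2-D1 also vary between mouse strains, and the labels do not name the strain.

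The peptide transporter and its partner differed in the size of their gap to WT. Tap1, the first chain of the transporter, was at 23 and 17.5 CPM in Tet2 oridonin, 21.5 and 33.8 CPM in Tet2 vector and 9.95 CPM in WT. Tap2, the second chain, was at 27.8 and 28.2 CPM in Tet2 oridonin, 29.2 and 32.1 CPM in Tet2 vector and 22.5 CPM in WT. Both chains were lowest in WT, but the log2 differences of the Tet2 libraries from WT were 0.81 to 1.76 for Tap1 and 0.3 to 0.52 for Tap2. Tapbp, which encodes tapasin, was at 88.2 and 85.2 CPM in Tet2 oridonin, 80.6 and 92.4 CPM in Tet2 vector and 68.4 CPM in WT. Its Tet2 oridonin libraries lay between the Tet2 vector libraries. The libraries are not known to keep strand, and genes annotated on the opposite strand cover 24.9% of Tapbp exon bases (Gm19412), 14.1% of those of Tap2 (Gm15821) and 14.7% of those of Psmb8 (Gm20496). Tap1 and Psmb9 also overlap each other on opposite strands, over 3.87% of Tap1 and 5.79% of Psmb9 exon bases. Reads from the shared bases of these pairs cannot be told apart without strand.

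The 3 immunosubunits were lowest in WT and lay farther apart between the Tet2 vector replicates than between the Tet2 oridonin replicates. Psmb8, which takes the place of Psmb5, was at 14.6 and 12.4 CPM in Tet2 oridonin, 16.1 and 25.5 CPM in Tet2 vector and 9.41 CPM in WT. Psmb9, which takes the place of Psmb6, was at 14.1 and 10.2 CPM in Tet2 oridonin, 12.4 and 24.7 CPM in Tet2 vector and 5.84 CPM in WT. Psmb10, which takes the place of Psmb7, was at 50.9 and 44.8 CPM in Tet2 oridonin, 45.6 and 75.6 CPM in Tet2 vector and 29.6 CPM in WT. In each of the 3, Tet2 vector replicate 2 was the highest library. Tet2 oridonin and Tet2 vector overlapped for Psmb9 and Psmb10 and not for Psmb8.

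Nlrc5 was the member with the fewest counts, about 51 in WT, where the value is a mix and not a whole count. It was at 6.97 and 11.5 CPM in Tet2 oridonin, 13.1 and 6.91 CPM in Tet2 vector and 3.43 CPM in WT. Its order within the Tet2 groups ran against that of the immunosubunits, since Tet2 vector replicate 1 was highest. The replicate difference, on the log2 scale, was 0.92 in Tet2 vector for Nlrc5 and 1 for Psmb9, against 0.08 for B2m. After adjustment for length, Nlrc5 stood above WT by a log2 difference of 1.46 and 1.83 in Tet2 oridonin and 1.87 and 1.58 in Tet2 vector, so that its replicates lay closer together than before. The same adjustment left Psmb9 at 1.13 and 0.75 in Tet2 oridonin and 0.97 and 1.78 in Tet2 vector.

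**Figure D1:**
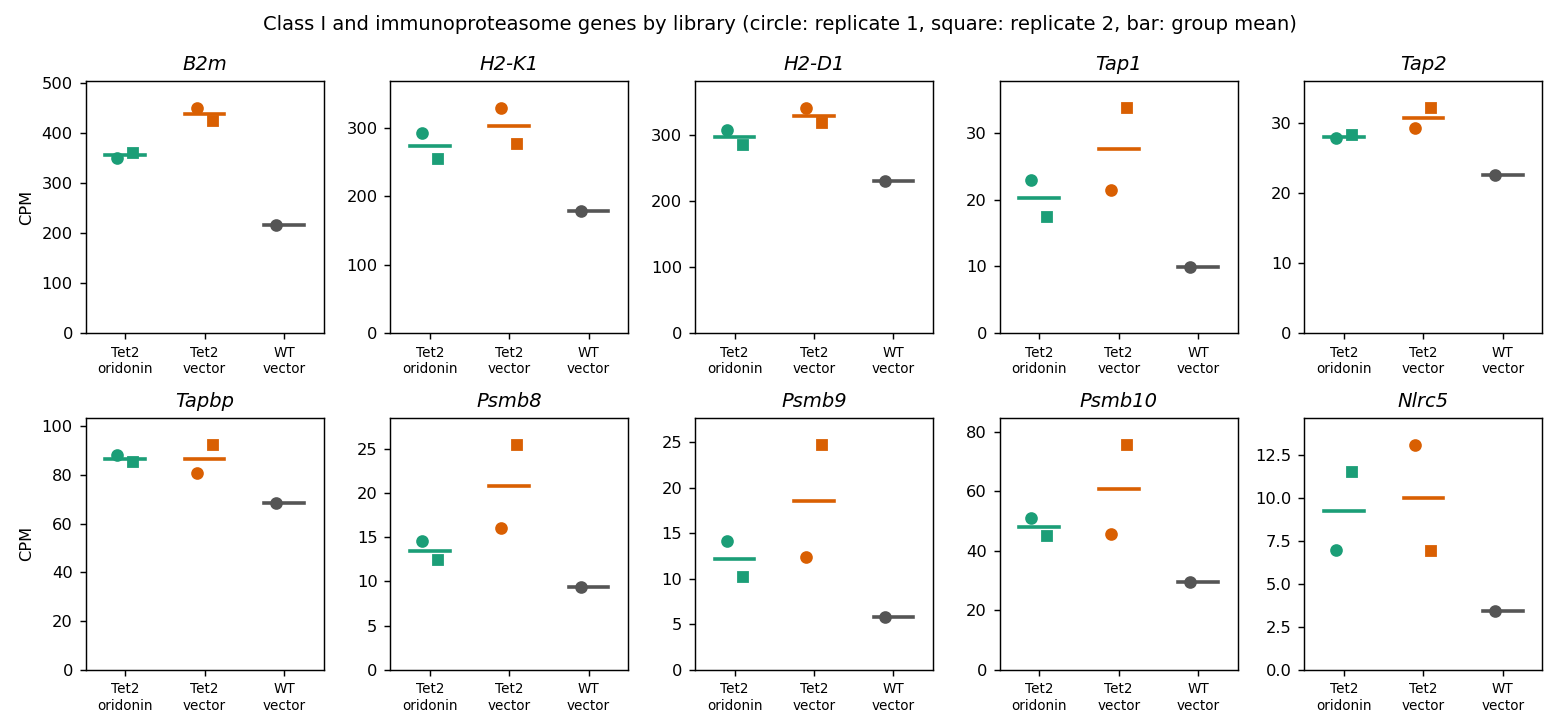
CPM of the 10 class I and immunoproteasome genes in Tet2 oridonin, Tet2 vector and WT vector hearts, one panel per gene with its own axis from 0, circles for replicate 1, squares for replicate 2 and a bar for the group mean. The WT point is the lowest in all 10 panels, and Tet2 vector replicate 2 is the highest point for Psmb8, Psmb9 and Psmb10 while replicate 1 is for Nlrc5.

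The first comparison set the Tet2 vector hearts against the WT heart and asked what accompanies the Tet2+/- label without drug. All 10 members were higher in both Tet2 vector libraries, and the fitted differences ran from a log2 fold change of 0.33 for Tapbp to 1.58 for Psmb9, with a median of 1. The median over all 12734 genes tested was 0. The differences of Psmb9, Nlrc5, Tap1, Psmb8 and B2m were over 2-fold, and the smallest were those of H2-D1, Tap2 and Tapbp. Limma's trend method, with p-values adjusted by Benjamini-Hochberg over all genes tested, called 0 members at an FDR of 0.05, and 0% of all genes.

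At an unadjusted p under 0.05, limma had 8 of the 10 members higher, all but Tap2 and Tapbp, where 5.06% of all genes tested were higher at that level, 4.53% lower and 9.59% either way. Voom on the recovered counts had 7 and called 0 at the FDR. The groups did not overlap for 10 of the 10 members, where 35.4% of all genes had both Tet2 vector libraries above WT and 32.3% both below. The members belong to one pathway and are not 10 independent observations.

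B2m had the smallest p-value among the members. It averaged 438 ± 17.8 CPM in Tet2 vector (SD, n = 2) against 216 CPM in WT, a log2 fold change of 1.02 (SE 0.18, adjusted p = 0.324 in limma), and it stood 45th by p-value among the genes tested. Tap1 averaged 27.7 ± 8.73 CPM in Tet2 vector (SD, n = 2) against 9.95 CPM in WT, a log2 fold change of 1.44 (SE 0.36, adjusted p = 0.39 in limma). Psmb9, at 18.5 ± 8.74 CPM in Tet2 vector (SD, n = 2) against 5.84 CPM in WT, had a log2 fold change of 1.58 (SE 0.47, adjusted p = 0.442 in limma), a larger difference with less certainty. The log2 fold changes were 1.46 for Nlrc5 (standard error 0.5), 1.1 for Psmb8 (0.35), 0.99 for Psmb10 (0.34), 0.76 for H2-K1 (0.21) and 0.52 for H2-D1 (0.19), with adjusted p-values between 0.429 and 0.497 in limma. For Tap2 and Tapbp the 95% intervals of the log2 fold change, -0.12 to 1.01 and -0.18 to 0.85, included 0.

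Without Tet2 vector replicate 1, the library with atrial markers, the median of the members was 0.99. Without replicate 2 the median was 0.83. After adjustment for transcript length the median was 0.77, B2m was at a log2 fold change of 0.75 (limma, adjusted p = 0.243) and Nlrc5 at 1.73 (limma, adjusted p = 0.138). The WT group is 1 library, so the fit takes its spread from the Tet2 groups, and a trait of that animal cannot be told apart from its genotype.

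**Figure D2:**
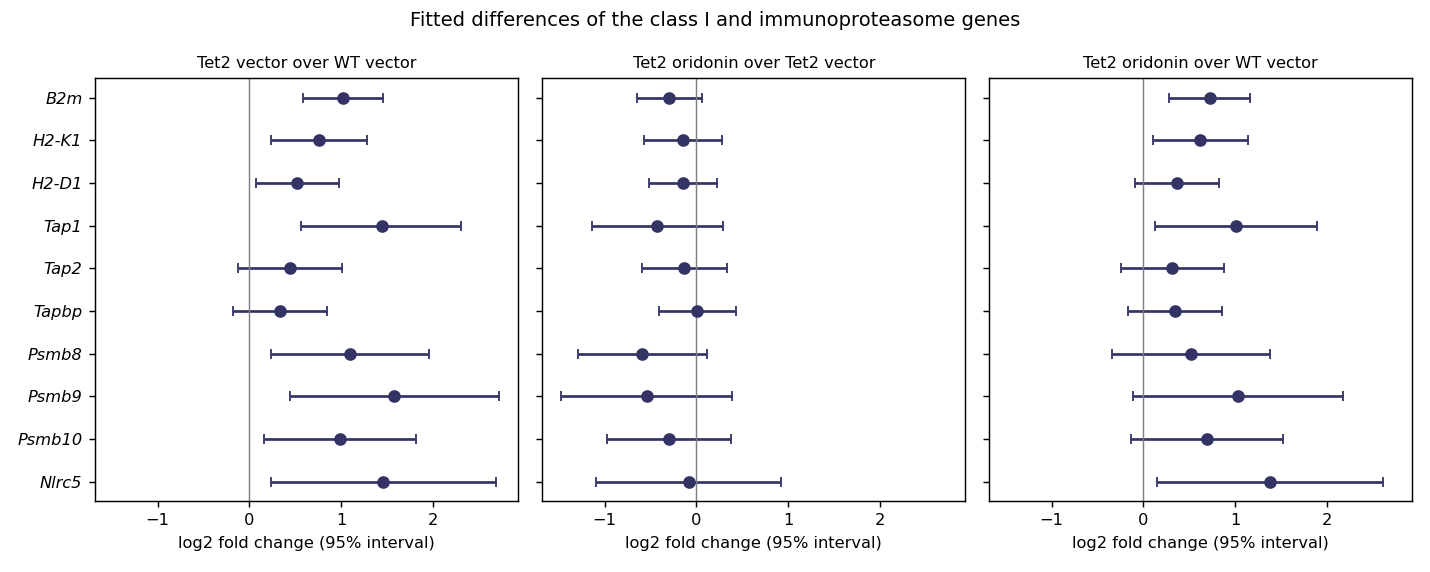
Fitted log2 fold changes with 95% intervals (limma) for the 10 genes in the 3 comparisons, as named above each panel. Intervals of 8 genes lie above 0 for Tet2 vector over WT vector, those of all 10 include 0 for Tet2 oridonin over Tet2 vector, and those of 4 lie above 0 for Tet2 oridonin over WT vector.

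The second comparison set Tet2 oridonin against Tet2 vector hearts and asked what the drug changed. Differences were small. Of the 10 members, 9 were lower and Tapbp was at a log2 fold change of 0.01, with a median of -0.22, where the median over all genes tested was -0.05 and 7614 of 12734 genes were lower. The most negative values were those of Psmb8 (-0.59, standard error 0.29), Psmb9 (-0.54, standard error 0.38) and Tap1 (-0.43, standard error 0.29), and their size rested on which Tet2 vector library was used. Without Tet2 vector replicate 2 they were -0.25 for Psmb8, -0.04 for Psmb9 and -0.1 for Tap1, and without Tet2 vector replicate 1 they were -0.92, -1.04 and -0.75. Limma called 0 members at an FDR of 0.05 against 0% of all genes, each member having an adjusted p = 1, and 0 had an unadjusted p under 0.05, where 1.93% of all genes were lower at that level, 0.668% higher and 2.6% either way. Voom also had 0 members at both levels.

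The groups did not overlap for 4 members, all lower with oridonin, B2m, H2-D1, Tap2 and Psmb8, where 17.8% of all genes were lower without overlap and 8.37% higher. B2m averaged 356 ± 6.42 CPM in Tet2 oridonin and 438 ± 17.8 CPM in Tet2 vector (SD, n = 2 each), a log2 fold change of -0.3 with a standard error of 0.15 and a 95% interval of -0.65 to 0.06. Psmb8 averaged 13.5 ± 1.56 CPM in Tet2 oridonin and 20.8 ± 6.65 CPM in Tet2 vector (SD, n = 2 each), with an interval of -1.29 to 0.12. For H2-K1 the interval was -0.57 to 0.28, and for Nlrc5 -1.09 to 0.92. The intervals of Psmb8, Psmb9, Tap1 and Nlrc5 thus held both a log2 difference of -1 and no difference, while those of H2-K1 and H2-D1 ended at -0.57 and -0.52.

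Single libraries set the direction for some members. Without Tet2 vector replicate 1 the log2 fold change was 0.37 for Nlrc5 and -0.09 for Tapbp. Without Tet2 vector replicate 2 it was 0.07 for Psmb10, and without Tet2 oridonin replicate 1 it was 0.28 for Nlrc5 and -0.02 for Tapbp. After adjustment for length the median was -0.13.

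The third comparison set Tet2 oridonin against the WT heart and shares libraries with the other comparisons. All 10 members were again above WT in both Tet2 oridonin libraries, where 31.9% of all genes were and 41.7% were below it in both, and the log2 fold changes ran from 0.31 for Tap2 to 1.38 for Nlrc5 with a median of 0.65. The median over all genes tested was -0.06. The median by library, as a log2 difference from WT, was 0.71 and 0.56 in Tet2 oridonin and 0.83 and 0.99 in Tet2 vector. Over all 4 Tet2 libraries, 10 of 10 members were above WT in each, where 24.2% of all genes were.

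Limma called 0 members between Tet2 oridonin and WT at an FDR of 0.05, against 0% of all genes. At an unadjusted p under 0.05 there were 4 members higher, B2m, H2-K1, Tap1 and Nlrc5, where 2.69% of all genes were, 3.53% were lower and 6.21% differed either way, and voom had 3 and called 0 at the FDR. After adjustment for length, the log2 differences of the Tet2 oridonin libraries from WT were 0.5 and 0.66 for B2m and 0.4 and 0.3 for H2-D1. The log2 fold change was 0.72 for B2m (SE 0.18, adjusted p = 0.651 in limma) and 1.38 for Nlrc5 (SE 0.5, adjusted p = 0.791 in limma).

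The immunosubunits were compared with the constitutive subunits that they replace. The transcripts of the constitutive subunits, of 798 to 1160 bases, are shorter than those of the immunosubunits, of 1311 to 1628 bases, and the ratios were not adjusted for length. In Tet2 vector replicate 2, where length mattered most, the median log2 difference from WT was 0.45 for transcripts of up to 1 kb, which include Psmb5 and Psmb6, and 0.25 for those of 1 to 2 kb. The ratio of Psmb8 to Psmb5 counts was 0.182 and 0.204 in Tet2 oridonin, 0.263 and 0.269 in Tet2 vector and 0.125 in WT. The ratio of Psmb9 to Psmb6 counts was 0.136 and 0.116 in Tet2 oridonin, 0.141 and 0.219 in Tet2 vector and 0.0574 in WT. The ratio of Psmb10 to Psmb7 counts was 0.542 and 0.53 in Tet2 oridonin, 0.492 and 0.703 in Tet2 vector and 0.263 in WT. Each ratio was lowest in WT, and Tet2 oridonin lay below Tet2 vector without overlap for both Psmb8 and Psmb9, while for Psmb10 it lay between the Tet2 vector libraries. The Tet2 vector replicates, 0.66 apart on the log2 scale for Psmb8 alone, were at ratios of 0.263 and 0.269, since Psmb5 was also higher in replicate 2. These ratios were not tested on their own.

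**Figure D3:**
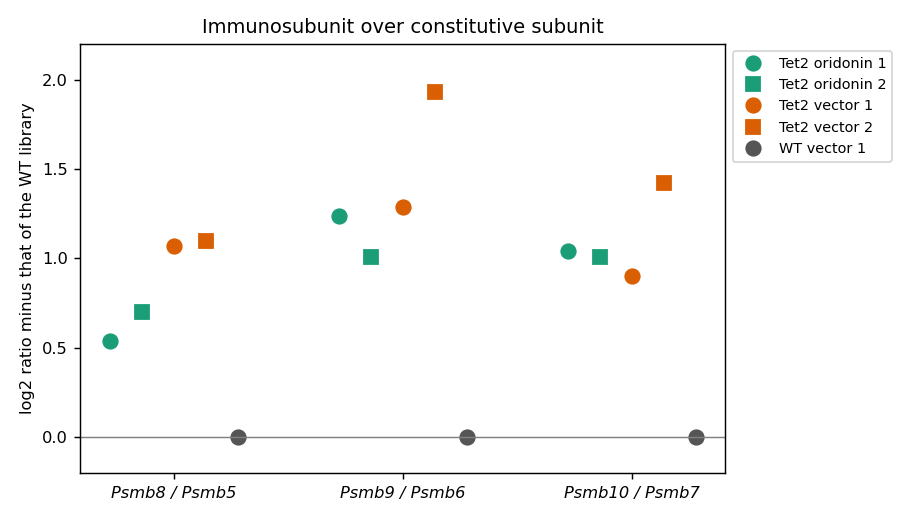
The log2 ratio of each immunosubunit to the constitutive subunit it replaces, per library, minus the same ratio in the WT library, which is therefore at 0. Tet2 oridonin lies between 0.54 and 1.24 and Tet2 vector between 0.9 and 1.93, and the Tet2 vector replicates nearly coincide for Psmb8 over Psmb5.

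The constitutive catalytic subunits did not show the difference of the immunosubunits. Psmb5 was at 80.5 and 61.1 CPM in Tet2 oridonin, 61.2 and 94.9 CPM in Tet2 vector and 75.4 CPM in WT, with WT between the Tet2 vector libraries. In Tet2 vector against WT the log2 fold changes were 0.02 for Psmb5, -0.04 for Psmb6 and -0.17 for Psmb7, with a median of -0.04. The 11 other subunits of the proteasome core had a median of 0.11, 9 of them higher. Its genes with the smallest p-values, which lead each list from here on, were Psmb2 (0.45), Psmb3 (0.39) and Psma1 (0.29), and 0 of the 11 had an unadjusted p under 0.05. None of these 14 was called by limma at the FDR, and with oridonin against vector their list medians were -0.12 and -0.08.

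Activators and assembly factors of the proteasome had a median log2 fold change of 0.25 over 9 genes in Tet2 vector against WT. Psme1, a subunit of the interferon-inducible PA28 cap, was at 115 and 120 CPM in Tet2 vector against 77.2 CPM in WT, a log2 fold change of 0.61 (limma, adjusted p = 0.465). Its partner Psme2 was at 28.5 and 38.3 CPM in Tet2 vector against 25.7 CPM in WT, with a log2 fold change of 0.36 (limma, adjusted p = 0.742). Psmg1, an assembly chaperone, had one of 0.4. Psme4, which encodes the PA200 activator on a transcript of 6491 bases, went the other way at 301 and 214 CPM in Tet2 vector against 506 CPM in WT (log2 fold change -1; limma, adjusted p = 0.46). With oridonin against vector the median was -0.09, led by Psme4 (0.27), Psme2 (-0.27) and Psmg1 (-0.18).

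The helpers of peptide loading had a median log2 fold change of 0.09 over 5 genes in Tet2 vector against WT. The leading ones were Pdia3, the oxidoreductase ERp57 of the loading complex, at 0.43, the chaperone Canx at -0.3 and the chaperone Calr at 0.26, and 0 had an unadjusted p under 0.05. With oridonin against vector the median was 0.02, led by Tapbpl (-0.36), Canx (0.12) and Erap1 (-0.13).

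Other class I heavy chains followed the classical ones in part. Of 17 listed, 14 had values and 12 were tested. Their median log2 fold change in Tet2 vector against WT was 0.16, with 8 higher and 4 lower. At an unadjusted p under 0.05 in limma 4 were higher, H2-Q6, H2-Q4, H2-T22 and H2-Q7, where 5.06% of all genes tested were. H2-Q6 was at 49.3 and 39.8 CPM in Tet2 vector against 25.2 CPM in WT, H2-Q4 at 50.2 and 53.7 CPM in Tet2 vector against 32.5 CPM in WT, and H2-T22 at 44.1 and 48.4 CPM in Tet2 vector against 29.9 CPM in WT. Shared stretches were not counted for these non-classical chains, so how far their reads can be told apart is not known here. Limma called 0 of the list at the FDR, and with oridonin against vector the median was -0.09, led by H2-M3 (-0.25), H2-Q4 (-0.19) and Hfe (-0.18).

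Ifng, the gene of interferon-gamma itself, had 0 counts in both Tet2 oridonin libraries, 2 and 0 in Tet2 vector and 0 in WT, below the floor of 3 counts or 0.193 to 0.206 CPM. Irf1, which acts on class I and immunoproteasome promoters, was at 31.2 and 33.3 CPM in Tet2 oridonin, 29.5 and 48.6 CPM in Tet2 vector and 24.7 CPM in WT. Irf1 was thus lowest in WT, as the members were, and in Tet2 oridonin it lay within the spread of Tet2 vector. The list of 17 signalling genes and regulators, of which 15 were tested, did not move as one, with a median log2 fold change of 0.01 in Tet2 vector against WT. In that comparison the log2 fold change was 0.72 for Irf9, a partner in interferon signalling, and -0.82 for the receptor kinase gene Jak1, both with an unadjusted p under 0.05, and limma called 0 of the list at the FDR. With oridonin against vector the list median was -0.02, with Rfx5 at 0.45 and Irf9 at -0.22.

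**Figure D4:**
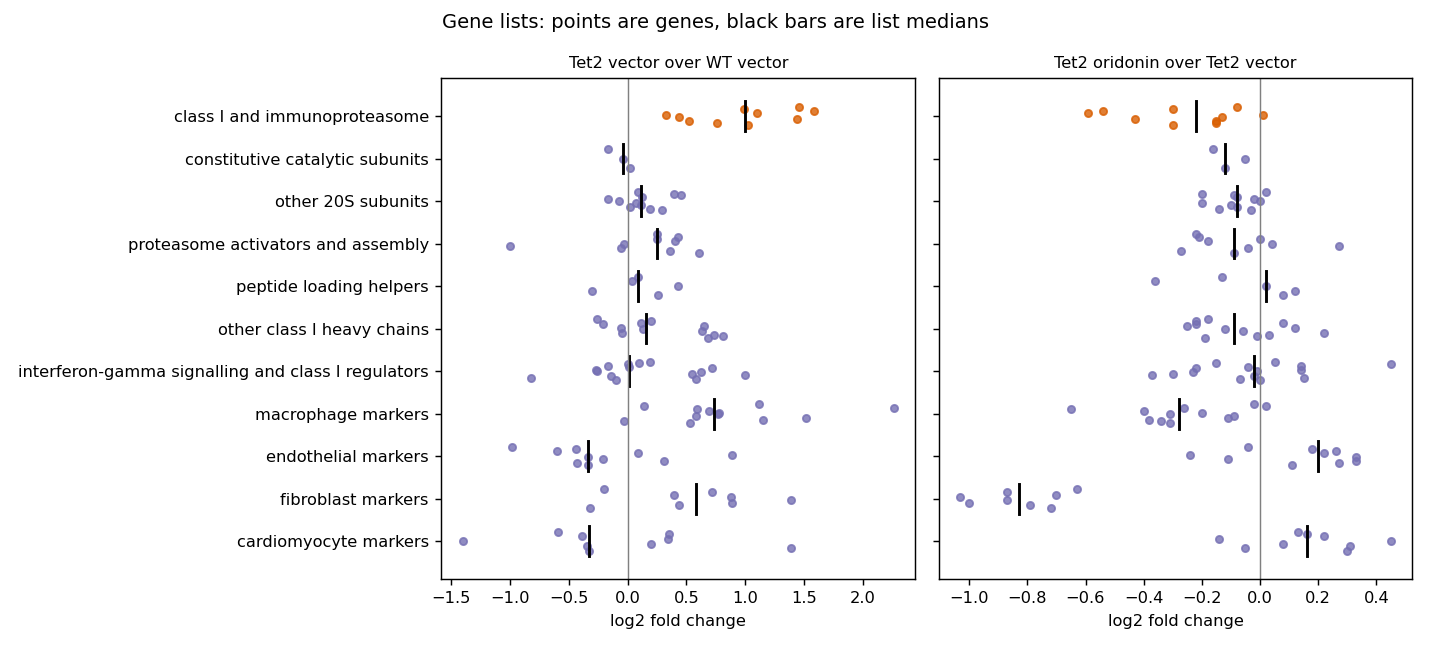
Log2 fold changes of the tested genes of each list for Tet2 vector over WT vector (left) and Tet2 oridonin over Tet2 vector (right), with points for genes and black bars for list medians. On the left the class I and immunoproteasome genes all lie above 0 with a median of 1, while the constitutive catalytic subunits have a median of -0.04, and on the right the medians are -0.22 and -0.12.

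In these bulk samples, fewer cells of a type and less RNA per cell cannot be told apart, and class I levels differ between cell types. All 12 macrophage markers were tested. They summed to 437 and 429 CPM in Tet2 oridonin, 714 and 480 CPM in Tet2 vector and 386 CPM in WT, with 0 markers at 0 counts, and their median log2 fold change in Tet2 vector against WT was 0.73, with 11 of 12 higher, led by Aif1 (2.26), C1qb (0.78) and C1qa (0.77). With oridonin against vector it was -0.28, led by Lyz2 (-0.65), C1qc (-0.4) and C1qa (-0.31). In Tet2 oridonin against WT the median of the macrophage markers was 0.47, with 10 of 12 higher, where all 10 members were. Lyz2 was among the 2 lower ones, at 171 and 173 CPM in Tet2 oridonin against 179 CPM in WT. The marker sum was highest in Tet2 vector replicate 1, where Lyz2 gave 338 of the 714 CPM. B2m, H2-K1, H2-D1 and Nlrc5 were also highest in that library, while Tap1, Tap2, Tapbp and the 3 immunosubunits were highest in Tet2 vector replicate 2. Fibroblast markers summed to 1950 and 1790 CPM in Tet2 oridonin, 3040 and 3130 CPM in Tet2 vector and 2890 CPM in WT. Their 8 markers had a median of 0.58 in Tet2 vector against WT, led by Col1a1 (1.39), Col1a2 (0.88) and Lum (0.89). With oridonin against vector all 8 were lower at an unadjusted p under 0.05 in limma, where 1.93% of all genes tested were. Their median there was -0.83, and limma called 0 of them at the FDR. The part of these cells in the class I levels was not tested.

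T and NK cells, the usual sources of interferon-gamma, left few reads. Their 13 markers summed to 5.33 and 3.84 CPM in Tet2 oridonin, 4.51 and 4.43 CPM in Tet2 vector and 3.25 CPM in WT, and 0 of them passed the filter. Cd3e, of the T cell receptor complex, had 4 and 1 counts in Tet2 oridonin, 4 and 4 in Tet2 vector and 5 in WT. Cd8a, a co-receptor of CD8 T cells, had 11 and 9 in Tet2 oridonin, 11 and 4 in Tet2 vector and 9 in WT. The order differed within the list, and Gzmb had 3 and 3 counts in Tet2 oridonin, 8 and 10 in Tet2 vector and 2 in WT. Of the 5 B cell markers, 1 passed the filter, and they summed to 11.8 and 10.6 CPM in Tet2 oridonin, 7.98 and 12.1 CPM in Tet2 vector and 6.26 CPM in WT. Ms4a1, which encodes CD20, had at most 3 counts in any library. Endothelial markers had a median log2 fold change of -0.34 in Tet2 vector against WT over 10 markers, 7 of them lower, and summed to 1320 and 1440 CPM in Tet2 oridonin, 1210 and 1190 CPM in Tet2 vector and 1400 CPM in WT. Among them the log2 fold changes were 0.89 for Emcn, -0.6 for Flt1 and -0.98 for Cldn5. The 9 cardiomyocyte markers had a median of -0.33 in that comparison, with 4 higher and 5 lower, led by Actc1 (1.39), Ryr2 (-1.4) and Atp2a2 (-0.59). Actc1 was at 12800 and 13500 CPM in Tet2 oridonin, 14200 and 13100 CPM in Tet2 vector and 5210 CPM in WT. Neither the endothelial nor the cardiomyocyte set was tested for a part in the class I levels.

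**Figure D5:**
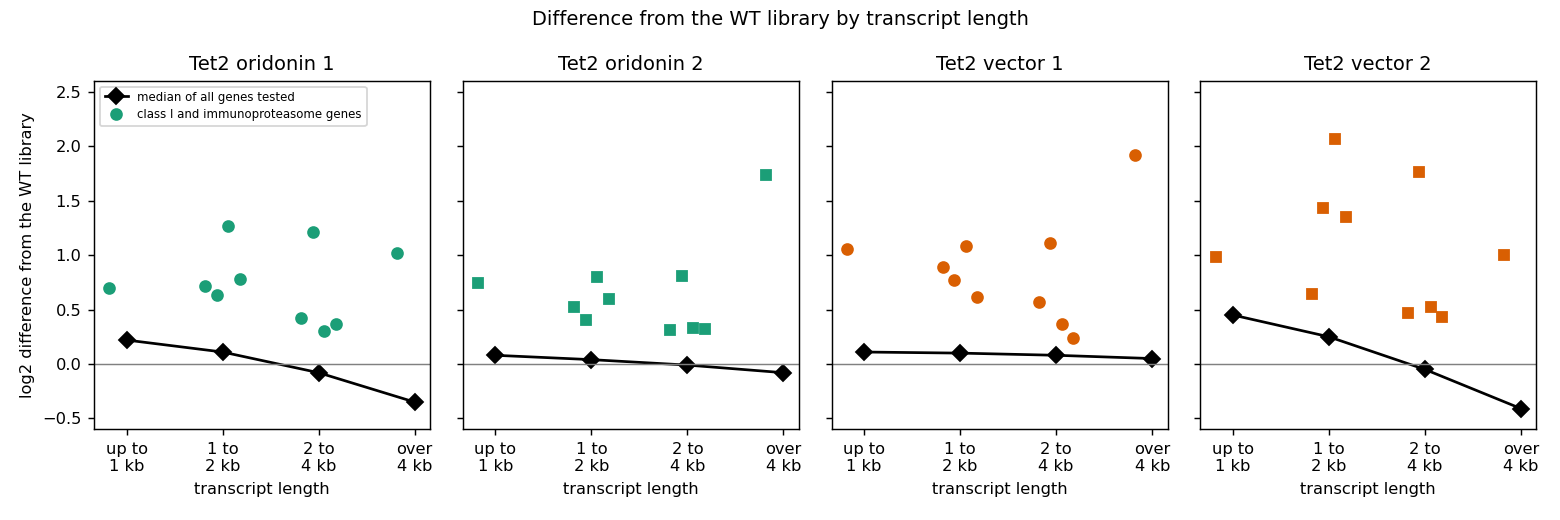
Log2 difference from the WT library by length class of the principal transcript in each Tet2 library, with black diamonds for the median of all genes tested and coloured points for the 10 class I and immunoproteasome genes. The black line falls from 0.45 to -0.41 in Tet2 vector replicate 2 and is nearly level in Tet2 vector replicate 1, and every coloured point lies above the line in its own panel.

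The members were compared with one another and with all genes by the shape of their profile over the 5 libraries, as the root mean square difference of centred log2 levels from the members' mean. That mean profile was 0.08 and -0.01 in Tet2 oridonin, 0.2 and 0.4 in Tet2 vector and -0.67 in WT. B2m was closest to it, at 0.101, followed by H2-K1 at 0.167 and Psmb10 at 0.17, and Psmb9 (0.358) and Nlrc5 (0.502) were farthest. Among 8177 other genes averaging 10 CPM or more, the nearest were Pcolce (0.068), Fxyd5 (0.072), Rpp21 (0.077), Tmem98 (0.078) and Akr1e1 (0.079). Pcolce, an enhancer of procollagen processing, was at 51.3 and 49.1 CPM in Tet2 oridonin, 62.3 and 68.1 CPM in Tet2 vector and 30 CPM in WT. These likenesses rest on 5 libraries and are a description.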

How the data were processed

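Per the labels' protocols, poly-A RNA of each heart was prepared for sequencing by a NEBNext Ultra kit. The build is mm10, per the submitters' processing notes, with aligner, counter and gene models not given in the sources used here. Log2 values were deposited for 17818 symbols in 5 columns, with 0 columns left without a sample. From the values, these are log2 CPM with 0.5 added to each count, where a Tet2 column holds 0.75 of its own library's log2 value plus 0.25 of its replicate's. This mix was undone (whole counts were those within 0.01). As deposited, 9.06% to 10.4% of genes gave whole counts in the Tet2 columns. For 99.63% of 2677 genes of 10 to 60 counts, the WT value could be written as a mix of 2 integers at weight 0.75. At other weights at most 23.9% could. Only integers close to each other were tried, and what was mixed is not known. The WT column was counted as 1 sample.

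The filter required 1 CPM or more in 2 or more libraries and left 12734 genes. Limma 3.58.1 (R 4.3.3) was fitted to the unmixed log2 values with its trend and robust options. The fit used all 5 libraries and a term for group, with 2 residual degrees of freedom. It was also run on simulated counts with the same spread in every library. That run lacked the length differences and the mixed WT column, and is no check of these results. P-values were adjusted by Benjamini-Hochberg over all genes within a comparison, at an FDR of 0.05. Nothing in the labels says how replicates were drawn, so p-values reflect the spread among these libraries, which may be technical. The members and all gene lists were chosen with earlier results of these data known. All members are named, and from each other list up to 3 genes with the smallest p in a comparison, with Psmb5, Psmb6, Psmb7, Psme1, Psme2, Irf1 and Ifng always, and the 5 genes nearest in profile. H2-Q7 and the counts of Cd3e, Cd8a, Gzmb, Ms4a1 and Tet2 were named after their values were seen. A gene that the rule would also name is not reported here. Principal transcript lengths came from GENCODE M21 and were available for 96.7% of genes tested. For the length adjustment, each gene's log2 level was taken as its deviation from its own mean over the 5 libraries. Within each library, a lowess curve of these deviations on log2 length was subtracted. The adjustment was chosen after the data were seen. Other alternatives were the deposited values, voom, a plain empirical Bayes step, other scalings, filters and pseudocounts, a replicate block and leaving out each library.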

Additional observations from a re-analysis of the deposited data

How the results depend on the processing

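No member changed direction against WT under any alternative run. The members' median stayed between 0.77 and 1.09 in Tet2 vector against WT, -0.26 and -0.13 in Tet2 oridonin against Tet2 vector and 0.54 and 0.76 in Tet2 oridonin against WT. In Tet2 oridonin against Tet2 vector, Nlrc5 was at 0.28 without oridonin replicate 1, 0.37 without vector replicate 1 and -0.54 without vector replicate 2. Psmb10 was at 0.07 without vector replicate 2 and -0.66 without vector replicate 1, and Tapbp at -0.02 without oridonin replicate 1 and -0.09 without vector replicate 1. On the deposited mixed values, whose replicates are pulled together by construction, limma called 2312 genes with 9 members in Tet2 vector against WT. It called 76 genes with 0 members in Tet2 oridonin against Tet2 vector, and 996 genes with 4 members in Tet2 oridonin against WT.

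Leaving out 1 library, 0 members were called, and genes called ran from 2 to 107 in Tet2 vector against WT, 0 to 32 in Tet2 oridonin against Tet2 vector and 0 to 24 in Tet2 oridonin against WT. The highest counts came without oridonin replicate 2. Dropping oridonin replicate 1 gave 87, 13 and 10. They were 3, 5 and 1 without vector replicate 1 and 2, 3 and 0 without vector replicate 2. Members at an unadjusted p under 0.05 are not counted for these fits, whose shares over all genes were not taken. A group left with 1 library is assumed to vary like the others, and the cause was not tested.

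Same-numbered Tet2 libraries share the month number of their titles and no other stated link. The correlation of their deviations was -0.296 over 12734 genes. The replicate block gave 10, 9 and 6 called genes and 0 called members. The crossed pairing, added after the data were seen, called 432, 44 and 184 genes with 4, 0 and 2 members. After adjustment for length, 1 gene was called in Tet2 oridonin against WT. Leaving mitochondrial genes out of the total moved all log2 fold changes against WT by 0.09 in Tet2 vector and 0.11 in Tet2 oridonin. Depth limits Nlrc5 and Psmb9 most, with about 51 and 88 counts in WT.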
